A study of Mus musculus with 24 samples.

Results

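Gene expression was compared in the aortas of wild type C57BL/6 mice that all drank 1% NaCl, between animals infused with BAPN and angiotensin II and animals that were not. The comparison holds 6 of the 24 arrays of the series, 3 infused and 3 uninfused, chosen by their labels and not by any measured value. Salt water was given before and throughout the 3 days of infusion, so both groups carried the salt load and differed in the infusion. The labels of the uninfused group name NaCl alone as its agent, and the protocol names vehicle as the counterpart of the infusion. BAPN (beta-aminopropionitrile) and angiotensin II were always given together, so their effects cannot be told apart. The labels give neither the age or sex of the mice nor the segment of the aorta. They call the 3 samples of a group biological replicates without saying that each was 1 mouse. The p-values measure the spread between samples within groups, estimated jointly over the 8 groups of the series. Those groups also hold IL-17 knockout mice and mice on plain water, which enter the fit and later comparisons.

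BAPN blocks lysyl oxidases, the copper enzymes that cross-link collagen and elastin, and angiotensin II constricts arteries and activates smooth muscle and inflammatory cells in their wall. Given together to mice, they weaken and load the aortic wall and are used as a model of aortic dissection, in which blood splits the medial layer. The title of the series names high salt intake and the interleukin 17 (IL-17) pathway as the conditions under study in this model.

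Each value below is a probe's log2 signal minus the 75th percentile of its array, so 0 is that percentile, and a change is the infused mean minus the uninfused mean on that log2 scale. Of the 59305 spots outside controls, 53.7% to 60.8% were well above background on the 6 arrays, none were saturated, and the 75th percentile lay between 310 and 438 intensity units. The number of arrays limits the precision. The uninfused arrays correlated with each other at 0.9921 to 0.9948 over all genes and the infused arrays at 0.9807 to 0.9876, a description over shared genes. The 3 uninfused arrays and infused arrays 1 and 2 shared a slide, and infused array 3 lay on another slide. Over the genes that changed, the median distance from the uninfused mean was 0.77 on infused array 1, 0.61 on infused array 2 and 0.96 on infused array 3. A fit with the slide as a block takes up infused array 3 entirely, so its change is that of infused arrays 1 and 2 on the shared slide. That change, tested with the slide as a block or on the shared slide alone, is given below for the main genes and lists whose calls it alters. Several genes below were well above background on some arrays of a group only, so their changes rest in part on values near background. On the uninfused arrays these were Cxcl10, Chil3, Fosl1, Saa3 and Ptcra (1 of 3 arrays) and Cdk1, Il1b, Il17ra, Plau, Gdf6, Cfi, Npas2, Shcbp1 and Sirpb1b (2 of 3). On the infused arrays they were Avpr1a and Cyp2b10 (1 of 3) and Gpnmb, Scnn1a and Ciart (2 of 3).

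The labels call the material aorta, while the extraction protocol speaks of cells, and markers of arterial smooth muscle were detected on every array. Acta2, the actin of vascular smooth muscle, read 9.62, 9.71 and 9.65 on the uninfused arrays and 9.67, 9.74 and 9.57 on the infused ones, and Tagln and Cnn1, which encode actin-binding proteins of the contractile apparatus, also overlapped between the groups. Among 24 contractile smooth muscle markers, 1 rose (Casq2) and 3 fell, among them Synpo2 and Itga8, and the median change was -0.30. Over all genes tested, 16.3% rose and 16.6% fell. Without infused array 2 there were 8 lower members, and without uninfused array 2, infused array 1 or infused array 3 there was 1. Myh11, the smooth muscle myosin heavy chain, read 7.01, 7.003 and 7.19 without infusion and 6.30, 6.61 and 5.40 with it, lowest on infused array 3. Its change of -0.96 did not pass (SE 0.38, adjusted p = 0.0584), but it passed on the shared slide alone (-0.61, adjusted p = 0.0203), after quantile normalisation (0.0344), with the authors' values (0.0343), with a trended prior (0.0464), with the stricter probe filter (0.0469) and without infused array 2 (0.0309).

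The infusion changed about as many genes upward as downward. At an adjusted p under 0.05, 3829 of the 23503 genes tested were higher in the infused aortas (16.3%) and 3910 were lower (16.6%), 32.9% in all, and the median change over all genes was -0.05. The arrays of the groups did not overlap for 12833 genes (54.6%). The counts of list members in this report are to be read beside these shares, and some lie near them. With the slide as a block 2864 genes were higher (12.2%) and 3159 lower (13.4%), and a fit of the shared slide alone gave 3040 (12.9%) and 3738 (15.9%). Of the 7739 genes called, 5579 were also called with the slide block. All 7739 kept their direction there, but the block uses a part of the same arrays. For 7609 of them the groups did not overlap, so their direction was fixed in advance. Leaving out infused array 3 gave 2142 higher (9.11%) and 2332 lower (9.92%), and leaving out uninfused array 3 gave 2527 (10.8%) and 2582 (11%).

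**Figure D1:**
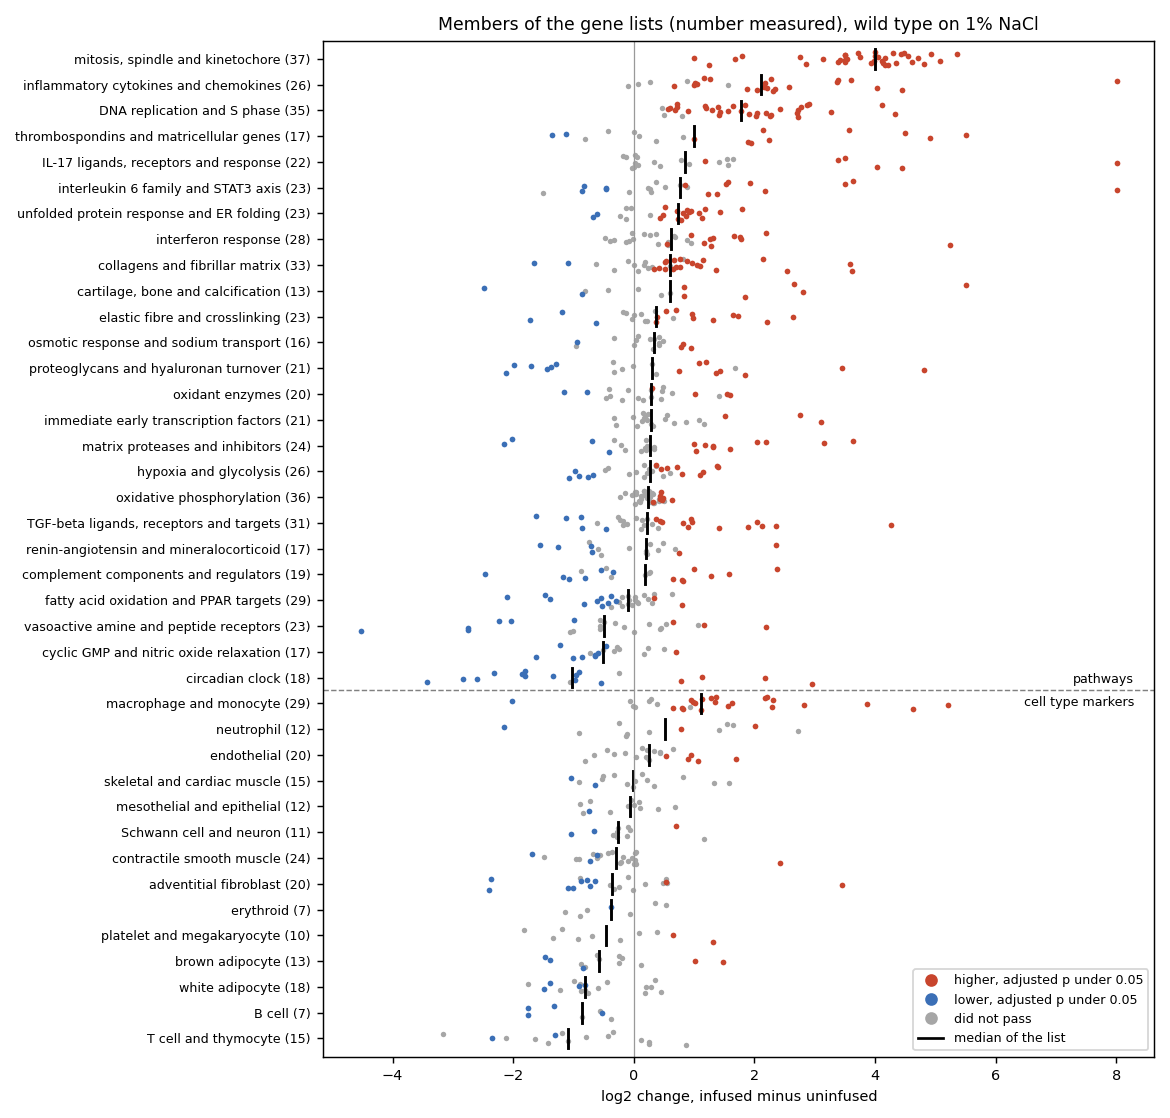
Change of each measured member of the gene lists on the log2 scale (x axis, infused minus uninfused), 1 row per list with the number measured, pathways above the dashed line and cell type markers below. Red points passed upward, blue points passed downward, grey points did not pass and the black bar is the list's median. Mitosis genes sit furthest to the right with a median of 3.998, and circadian clock genes fall on both sides with a median of -1.02.

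Cell division genes rose together, more than any other list examined by its median. Of 37 measured genes of mitosis, spindle and kinetochore (38 listed), 37 were higher and none lower, with a median change of 3.998. The groups did not overlap for any of them, against 54.6% of all genes. The median was 3.74 on the shared slide, and with the 6 genes that were not well above background on any uninfused array set at their lower bound it was 3.91. Cdk1, the kinase that drives entry into mitosis, read -3.96, -4.27 and -5.57 on the uninfused arrays and 0.68, -0.40 and 1.17 on the infused arrays. It was higher by 5.08 (SE 0.64, adjusted p = 4.3e-05). Mki67, the gene of the proliferation antigen Ki-67, read -0.13, 0.05 and -0.46 against 4.10, 3.03 and 4.33, higher by 4.0 (SE 0.52, adjusted p = 6.22e-05). Infused array 2 held the lowest infused value of both genes.

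Prc1, which bundles microtubules of the central spindle, rose by 4.42 (SE 0.50, adjusted p = 2.52e-05), and Cdca5, the cohesion factor sororin, by 4.11 (SE 0.49, adjusted p = 3.26e-05). Cdca8, the chromosomal passenger protein borealin, rose by 3.98 (SE 0.48, adjusted p = 3.49e-05). Ska3, a kinetochore protein that holds chromosomes on microtubules, was not well above background on any uninfused array and was at least 7.84-fold higher with infusion (adjusted p = 3.14e-05). Such a bound sets the infused mean against the lowest signal counted as above background on each uninfused array, or the probe's own where that was higher. An adjusted p printed with a bound is that of the fitted change. The promoters of these 4 genes are printed here because the list moved as a block and mitotic promoters are known to carry the cell cycle genes homology region, TTTGAA, near a CCAAT box. They are RefSeq windows on GRCm38.p6, 300 bases from 250 before to 50 after the start of transcription, written on the gene's strand from 5′ to 3′. Capitals mark TTTGAA and CCAAT or their reverse complements TTCAAA and ATTGG. The windows are chr7:80294201-80294500 for Prc1 (plus strand, 1 of its 2 starts), chr14:57826114-57826413 for Ska3 (minus strand), chr19:6084847-6085146 for Cdca5 (plus strand) and chr4:124936868-124937167 for Cdca8 (minus strand).
Prc1: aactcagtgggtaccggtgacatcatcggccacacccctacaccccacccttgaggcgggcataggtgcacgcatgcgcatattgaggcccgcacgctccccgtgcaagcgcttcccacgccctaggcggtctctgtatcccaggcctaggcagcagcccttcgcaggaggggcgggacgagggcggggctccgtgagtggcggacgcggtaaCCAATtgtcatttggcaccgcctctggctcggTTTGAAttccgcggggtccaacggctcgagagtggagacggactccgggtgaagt
Ska3: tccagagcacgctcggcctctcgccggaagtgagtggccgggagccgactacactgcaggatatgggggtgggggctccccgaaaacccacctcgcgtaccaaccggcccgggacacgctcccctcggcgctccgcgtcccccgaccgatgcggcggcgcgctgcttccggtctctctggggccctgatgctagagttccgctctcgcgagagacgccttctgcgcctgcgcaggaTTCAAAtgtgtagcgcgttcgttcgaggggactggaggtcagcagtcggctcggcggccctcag
Cdca5: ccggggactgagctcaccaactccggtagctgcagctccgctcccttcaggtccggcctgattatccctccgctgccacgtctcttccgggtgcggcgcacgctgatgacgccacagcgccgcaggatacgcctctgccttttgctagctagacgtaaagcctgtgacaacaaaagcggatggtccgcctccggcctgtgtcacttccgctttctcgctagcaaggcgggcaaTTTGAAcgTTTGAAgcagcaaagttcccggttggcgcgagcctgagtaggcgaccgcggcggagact
Cdca8: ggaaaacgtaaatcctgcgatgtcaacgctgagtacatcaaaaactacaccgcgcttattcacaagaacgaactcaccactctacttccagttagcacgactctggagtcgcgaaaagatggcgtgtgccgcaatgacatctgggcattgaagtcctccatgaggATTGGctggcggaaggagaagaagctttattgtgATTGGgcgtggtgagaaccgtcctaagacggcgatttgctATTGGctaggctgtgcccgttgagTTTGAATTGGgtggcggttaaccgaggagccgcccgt
TTTGAA was present on either strand in 26 of 33 promoters of the mitosis list (78.8%, from 31 genes that matched the table), against 17.9% of all 32851 mouse promoters and 12.7% of the promoters of genes tested. CCAAT stood in 72.7% of them against 37.4% of all promoters, and both motifs in 63.6% against 6.95%. In the Cdca8 window a TTTGAA and an ATTGG share letters. These matches describe the letters in the windows and are not evidence of binding.

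Genes of DNA replication rose less steeply. Of 35 measured (36 listed), 32 were higher and none lower, and the median change was 1.78. Tk1, the thymidine kinase of S phase, read -1.39, -0.96 and -1.62 without infusion and 3.03, 1.86 and 3.47 with it, higher by 4.11 (SE 0.49, adjusted p = 3.49e-05). Mcm5, a subunit of the replicative helicase, read -0.80, -0.84 and -1.12 against 1.84, 1.09 and 2.50, higher by 2.73 (SE 0.32, adjusted p = 2.93e-05). The 3 members that did not pass included Cdc45 at 0.80 and Pola1 at 0.47. Of the 35 promoters matched to this list 11.4% held TTTGAA and 57.1% held CCAAT. Myc, a transcription factor that promotes growth, rose by 2.75 (SE 0.43, adjusted p = 0.000235), and Fosl1, of the AP-1 family, by 3.11 (SE 0.67, adjusted p = 0.00227). They and Maff were the 3 of 21 measured immediate early factors that were higher, beside 16.3% of all genes. The list median was 0.28, and -0.14 on the shared slide. Without infused array 3, 1 immediate early gene was also lower.

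**Figure D2:**
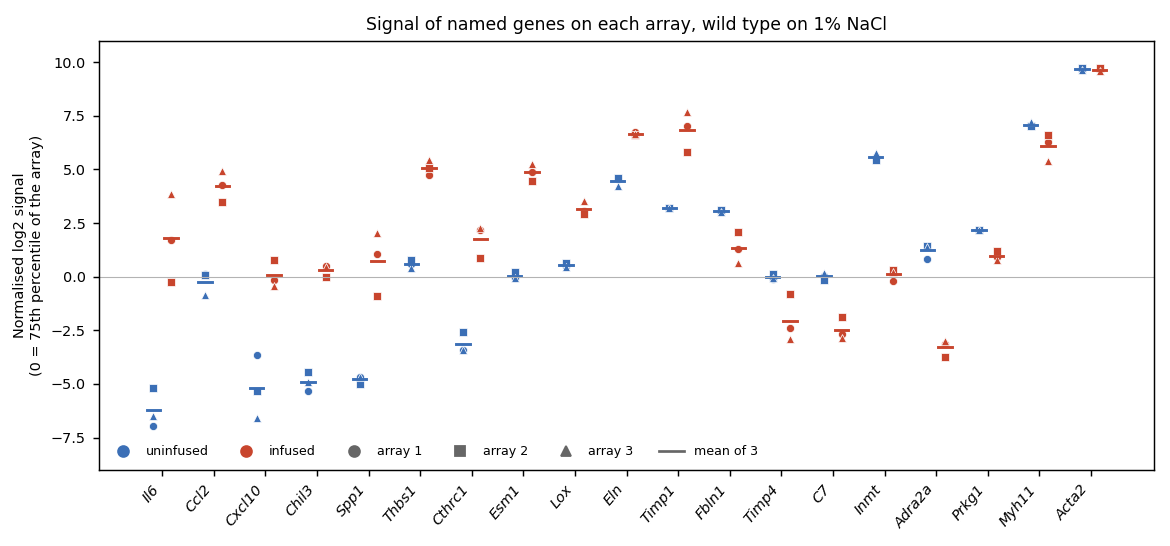
Normalised log2 signal (y axis, 0 is the array's 75th percentile) of 19 genes on each uninfused (blue) and infused (red) array, with the mean of 3 arrays as a bar and 1 symbol shape per array number. Il6 moves from between -6.96 and -5.20 to between -0.23 and 3.87, Inmt falls from above 5 to near 0, and Acta2 stays near 9.6 in both groups.

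Inflammatory mediators were higher across the list. Of 26 measured cytokines, chemokines and adhesion genes (34 listed), 21 were higher and none lower, with a median of 2.11. With the 4 genes that were not well above background on any uninfused array set at their lower bound, the median was 1.72. Il6, the cytokine that drives the acute phase response, had its probe at chr5:30346367-30346426 on mm9. It was not well above background on any uninfused array, at -6.96, -5.20 and -6.50, and was well above it on all infused arrays, at 1.71, -0.23 and 3.87. It was at least 85.0-fold higher (adjusted p = 0.00145), and the infused arrays spread over more than 4 log2 units, with array 3 highest and array 2 lowest.

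The monocyte attractants moved with it. Ccl2 read 0.11, 0.08 and -0.88 without infusion and 4.26, 3.46 and 4.94 with it, higher by 4.45 (SE 0.63, adjusted p = 0.000114), and Ccl7 rose by 4.03 (SE 0.59, adjusted p = 0.000154). Ptgs2, the inducible cyclooxygenase of prostaglandin synthesis, rose by 3.39 (SE 0.71, adjusted p = 0.00194). Sele, the endothelial selectin that captures leukocytes, was not well above background without infusion and was at least 3.89-fold higher (adjusted p = 0.0011). Tnf was well above background on 2 infused arrays and on none of the uninfused ones, and was at least 1.64-fold higher (adjusted p = 0.00106). Its call was lost after normexp background correction (change 0.33, adjusted p = 0.0943). Il1b rose by 3.38 (SE 1.26, adjusted p = 0.0462), a call lost without any one of the 6 arrays, where its adjusted p lay between 0.0545 and 0.172, and with the slide block (2.77, adjusted p = 0.118).

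In the interleukin 6 family and STAT3 axis the calls went both ways. The 3 receptor chains (Il6st, Lifr and Il11ra1) and the kinase Jak2 were lower, while the oncostatin M receptor Osmr was higher. Of 23 measured members 10 were higher and 4 lower. With the slide block 6 were higher, without infused array 3 there were 4 (median 0.72), and on the shared slide alone there were 13. Timp1, a STAT3 target and metalloproteinase inhibitor, read 3.20, 3.21 and 3.20 without infusion and 7.03, 5.82 and 7.66 with it, higher by 3.63 (SE 0.51, adjusted p = 0.000115). Il11 rose by 2.17, with an adjusted p of 0.0113 that was 0.054 with the slide block and 0.0597 without infused array 3. The shared signalling receptor Il6st fell by 0.46 (SE 0.11, adjusted p = 0.0046). Lifr, the leukemia inhibitory factor receptor, read 2.28, 2.29 and 2.19 against 1.41, 1.44 and 1.44 (change -0.82, SE 0.15, adjusted p = 0.000933). Il11ra1, the interleukin 11 receptor, read 7.38, 7.39 and 7.53 against 6.75, 6.57 and 6.40 (change -0.86, SE 0.18, adjusted p = 0.00219). The groups did not overlap for either receptor, as for 54.6% of all genes.

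The IL-17 ligands themselves were not detected. The probes of Il17a (chr1:20724404-20724463 on mm9) and Il17f were well above background on none of the 24 arrays, so no level or change can be given and Il17a cannot check the knockout labels. Il17rc, a receptor chain, read 3.79, 3.67 and 3.80 without infusion and 3.73, 3.80 and 3.79 with it, a change of 0.02 (SE 0.10, adjusted p = 0.904). Il17ra, its partner, changed by 0.92 (SE 0.56, adjusted p = 0.213), and passed on the shared slide alone (0.84, adjusted p = 0.0384) and with only the groups compared (0.00941). Of 22 measured ligands, receptors and response genes, 6 were higher and none lower, with 5 higher under the slide block and 9 on the shared slide alone. The 6 were Il6, Ccl2, Ccl7, Saa3, Ptgs2 and Mmp3, most of which other inflammatory signals also induce. Saa3 lost its call with the slide block (adjusted p = 0.0567), after normexp background correction (0.243) and without uninfused array 2 or 3 or infused array 3 (0.0603 to 0.0668). Of the response genes of neutrophil and epithelial immunity, Lcn2 changed by 1.40 (SE 0.59, adjusted p = 0.0737), Cxcl1 by 1.55 (SE 0.78, adjusted p = 0.129), and S100a8 by 1.64 (SE 1.28, adjusted p = 0.335), none of which passed. On the shared slide alone Lcn2 passed at 1.52 (adjusted p = 0.00057) and Cxcl1 at 1.06 (0.0244), and with only the groups compared both passed (0.00259 and 0.0412).

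Interferon response genes rose in part. Of 28 measured, 11 were higher and none lower, with a median of 0.62, and infused array 3 held the smallest shift (0.19, against 0.64 and 1.02). Cxcl10, the interferon-induced chemokine of T cells, was well above background on 1 uninfused array, so the uninfused mean lies partly in the background. It read -3.63, -5.33 and -6.58 against -0.16, 0.77 and -0.44, a fitted change of 5.24 (SE 0.90, adjusted p = 0.000482). Zbp1, a sensor of nucleic acids, rose by 2.18 (SE 0.44, adjusted p = 0.00154). Oas1a, which makes the activator of RNase L, rose by 1.32 (SE 0.33, adjusted p = 0.00596). Mx2, an antiviral GTPase, changed by -0.48 and did not pass. Without uninfused array 3 there were 7 higher, and without infused array 2 there were 8 higher and 2 lower.

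Macrophage and monocyte markers moved with the inflammatory genes. Of 29 measured, 21 were higher and 1 lower, the median was 1.12, and their summed signal, in multiples of the array's 75th percentile, was 238 to 249 on the uninfused arrays and 330 to 358 on the infused arrays. The number higher was 11 without uninfused array 3, without infused array 1 or without infused array 3, and 18 with the slide block. RNA from whole aorta does not separate more cells of a type from more RNA per cell, and the part of these cells in the inflammatory changes was not tested. Chil3, a lectin of alternatively activated macrophages, read -5.31, -4.44 and -4.92 without infusion and 0.50, -0.01 and 0.45 with it, higher by 5.20 (SE 1.02, adjusted p = 0.00125). Trem2, a lipid-sensing receptor of macrophages, read 0.39, 0.52 and 0.34 against 2.87, 2.21 and 2.82, higher by 2.21 (SE 0.42, adjusted p = 0.000948). Cd68 rose by 1.56 and Lgals3 by 2.31, while Gpnmb, a glycoprotein of lipid-laden macrophages, fell by 2.03 (SE 0.55, adjusted p = 0.00976). After normexp background correction the change of Gpnmb was -0.77 and did not pass (adjusted p = 0.0864). Cd163 at 0.01 and Cd74 at -0.01, markers of resident macrophages and of antigen presentation, did not pass.

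**Figure D3:**
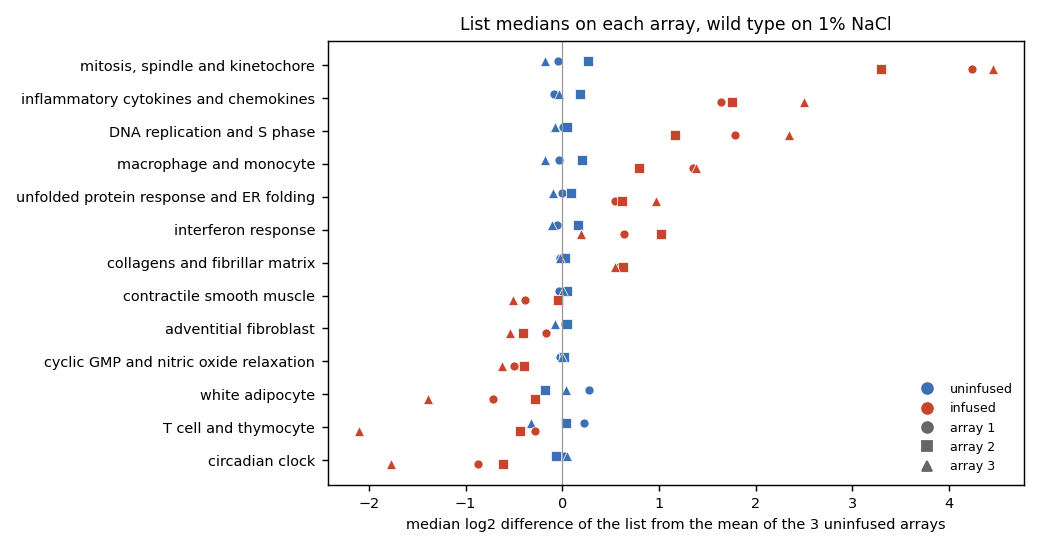
Median shift of 13 gene lists on each array, in log2 units from the mean of the 3 uninfused arrays (x axis), blue for uninfused and red for infused arrays, with 1 symbol shape per array number. Infused arrays 1 to 3 sit at 4.24, 3.30 and 4.45 for mitosis, while the T cell and thymocyte list lies at -2.10 on infused array 3 and at -0.29 and -0.44 on the others.

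Markers of neutrophils and T cells gave few calls, while the median of B cell markers was lower on every infused array. Of 12 measured neutrophil markers, Mpo and Ly6g were higher and Mmp9 lower, and the summed signal overlapped between the groups (215 to 253 against 207 to 241). Of the 12, 3 were not detected on any uninfused array and 2 on any infused array. Ly6g passed on neither the slide block (adjusted p = 0.0832) nor without uninfused or infused array 3 (0.0545 and 0.090). After normexp background correction neither Mpo (adjusted p = 0.231) nor Mmp9 (0.0889) passed. Of 15 measured T cell and thymocyte markers, Cd8b1 and Ptcra were lower, and none were with the slide block or without any one of uninfused arrays 1, 2 and 3 or infused array 3. Of 7 measured B cell markers 4 were lower and none higher, beside 16.6% of all genes lower, with a median of -0.86. The list's median shift was -1.24, -0.89 and -0.77 on infused arrays 1 to 3 and 0.20, -0.23 and 0.08 on the uninfused ones. The number lower fell to 1 without uninfused array 3 or infused array 3. It fell to 2 without uninfused array 1, without infused array 1 or with the slide block. Hba-a1, an alpha globin of red cells, read 6.63, 7.35 and 6.86 without infusion and 7.36, 7.79 and 2.27 with it, so infused array 3 held far less of it than the other 5. Globin genes are near-identical copies, so its probe may read several.

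The lysyl oxidase family, the target of BAPN, was higher as RNA. Lox read 0.50, 0.65 and 0.44 on the uninfused arrays and 3.04, 2.90 and 3.54 on the infused ones, higher by 2.63 (SE 0.31, adjusted p = 3.04e-05). Loxl2 read 1.13, 1.22 and 1.15 against 3.02, 3.06 and 2.61, higher by 1.73 (SE 0.25, adjusted p = 0.00012). Loxl4 rose by 1.65 (SE 0.32, adjusted p = 0.0012). Loxl1 rose by 0.38 (SE 0.13, adjusted p = 0.0301), a call lost after quantile normalisation (adjusted p = 0.468) and without any array but infused array 1 (0.0559 to 0.1). Loxl3 overlapped between the groups, with a change of -0.00 (SE 0.13, adjusted p = 0.996).

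Genes of the elastic fibre, where tropoelastin is a substrate of these enzymes, went both ways. Eln, tropoelastin, read 4.56, 4.59 and 4.24 without infusion and 6.73, 6.61 and 6.66 with it, higher by 2.20 (SE 0.23, adjusted p = 1.7e-05). Fbn1, the microfibril protein altered in Marfan syndrome, rose by 0.97 (SE 0.14, adjusted p = 0.00013). Fbln1, an elastic fibre glycoprotein, read 3.07, 3.13 and 3.02 against 1.30, 2.08 and 0.66 (change -1.73, SE 0.39, adjusted p = 0.00332), and Ltbp4, which anchors latent TGF-beta to elastic fibres, fell by 1.19 (SE 0.27, adjusted p = 0.00306). The elastic fibre and cross-linking list had 11 higher and 3 lower of 23 measured members. The 3 probes of Fbln1 changed by -1.77 to -1.15 and those of Ltbp4 by -1.29 to -0.29.

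Collagen genes were higher in most cases. The list of collagen chains, their processing enzymes and partner proteins held 33 measured members, of which 20 rose and 2 fell, with a median of 0.60. Col8a1, a short-chain collagen of injured vessels, read -2.53, -2.54 and -2.38 without infusion and 1.32, 0.61 and 1.35 with it, higher by 3.58 (SE 0.51, adjusted p = 0.000119). Col12a1, which bridges collagen fibrils, rose by 2.54 (SE 0.25, adjusted p = 1.33e-05), and Fn1, fibronectin, by 0.96 (SE 0.11, adjusted p = 2.43e-05). The major fibrillar chain Col1a1 rose by 0.65 (SE 0.11, adjusted p = 0.000488). Dcn, the small proteoglycan decorin that spaces collagen fibrils, fell by 1.09 (SE 0.14, adjusted p = 6.77e-05), and Fmod, its relative fibromodulin, fell by 1.66 (SE 0.44, adjusted p = 0.0087). Without infused array 3 Fmod missed the threshold (adjusted p = 0.0604) and Dcn was the only one of the list lower.

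Proteoglycans divided as well, and the small leucine-rich Ogn and Omd were among the lower members. Lum and Bgn, of the same class in the collagen list, were not called lower. Of 21 measured genes of proteoglycans and hyaluronan turnover, 8 were higher and 6 lower. Esm1, the endothelial proteoglycan endocan, read -0.04, 0.23 and -0.05 without infusion and 4.89, 4.47 and 5.24 with it, higher by 4.82 (SE 0.48, adjusted p = 1.33e-05). Acan, aggrecan, read 0.47, 0.50 and 0.67 against 2.31, 2.36 and 2.49, higher by 1.84 (SE 0.25, adjusted p = 8.47e-05). Has1, a hyaluronan synthase, rose by 3.45 (SE 0.84, adjusted p = 0.00501). Ogn, osteoglycin, read 6.75, 6.92 and 6.72 against 5.26, 5.36 and 4.66 (change -1.70, SE 0.32, adjusted p = 0.000871), and Omd, osteomodulin, fell by 1.98 (SE 0.44, adjusted p = 0.00286). Adamts15, an aggrecan-cleaving protease, fell by 2.12 (SE 0.34, adjusted p = 0.000266).

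Matrix proteases and their inhibitors moved both ways. Of 24 measured proteases and inhibitors 10 were higher and 4 lower, the latter being Mmp9 and the inhibitors Timp4, Serpine2 and Cst3, and without uninfused array 2, infused array 2 or infused array 3 there were 2 lower. Plau, the urokinase plasminogen activator, rose by 3.15 (SE 0.40, adjusted p = 4.3e-05), and its receptor Plaur by 2.18 (SE 0.38, adjusted p = 0.000502). Mmp14, a membrane collagenase, read -0.69, -0.43 and -0.59 without infusion and 0.85, 0.48 and 0.92 with it, higher by 1.32 (SE 0.25, adjusted p = 0.000877). Mmp9, a gelatinase of inflammatory cells, was well above background on 2 uninfused arrays and on none of the infused ones, and was at least 1.22-fold lower (adjusted p = 0.00431). That call was lost after normexp background correction (adjusted p = 0.0889). Timp4, a metalloproteinase inhibitor of cardiovascular tissue, read -0.12, 0.13 and -0.08 against -2.41, -0.80 and -2.93 (change -2.03, SE 0.46, adjusted p = 0.00357), the opposite direction to Timp1.

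Matricellular genes, which modulate the response of cells to the matrix, moved mostly upward among those that passed. Of 17 measured, 9 were higher and 2 lower, with a median of 1.00, and without infused array 3 there was 1 lower. Thbs1, thrombospondin 1, read 0.59, 0.77 and 0.40 without infusion and 4.74, 5.06 and 5.43 with it, higher by 4.49 (SE 0.49, adjusted p = 2.03e-05). Spp1, osteopontin, was not well above background on any uninfused array and was at least 40.4-fold higher (adjusted p = 0.000328), with infused values of 1.05, -0.92 and 2.05. Cthrc1, a secreted protein of injured arteries, read -3.40, -2.57 and -3.42 against 2.17, 0.86 and 2.29, higher by 4.90 (SE 0.78, adjusted p = 0.000283). Tnc, tenascin C, rose by 2.14 (SE 0.31, adjusted p = 0.000123). Sparcl1, of the same family as Sparc, fell by 1.35, a call lost without infused array 3 (adjusted p = 0.059).

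Of 31 measured genes of TGF-beta ligands, receptors and targets, 13 were higher and 5 lower, and 9 and 3 without uninfused array 3. Ccn2, the connective tissue growth factor, read 7.37, 6.62 and 7.04 without infusion and 8.69, 8.98 and 9.04 with it, higher by 1.90 (SE 0.28, adjusted p = 0.000139). Gdf6, a ligand of the bone morphogenetic protein group, rose by 4.26 (SE 0.49, adjusted p = 2.83e-05), and Bmp4 by 1.41 (SE 0.18, adjusted p = 4.35e-05). The type III receptor Tgfbr3 read 2.74, 2.75 and 2.59 against 0.86, 1.38 and 0.97 (change -1.62, SE 0.24, adjusted p = 0.000159), and the signalling receptor Tgfbr2 fell by 0.88 (SE 0.14, adjusted p = 0.00026). In the cartilage, bone and calcification list 6 of 13 measured genes were higher and 2 lower, and 3 were higher without any one of the uninfused arrays or without infused array 1. Tnfrsf11b, the decoy receptor osteoprotegerin, rose by 2.66 (SE 0.46, adjusted p = 0.000483), and Phex, an endopeptidase of bone mineralisation, fell by 2.49 (SE 0.56, adjusted p = 0.00296).

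Some genes of vessel relaxation were lower. Of 17 measured genes of cyclic GMP and nitric oxide relaxation, 8 were lower and 1, Nos2, higher, with a median of -0.51. Without infused array 3 there were 4 lower, without uninfused array 2 there were 5, and Nos2 passed neither with the slide block (adjusted p = 0.0861) nor without uninfused or infused array 3 (0.0522 and 0.0963). Gucy1a1, a subunit of the guanylate cyclase that senses nitric oxide, read 4.61, 4.68 and 4.61 without infusion and 2.94, 3.44 and 2.68 with it (change -1.61, SE 0.32, adjusted p = 0.00142). Prkg1, the cyclic GMP-dependent kinase, read 2.15, 2.19 and 2.19 against 0.92, 1.18 and 0.77 (change -1.22, SE 0.24, adjusted p = 0.0013). The uninfused arrays lay within 0.1 of each other for both genes, and every infused array lay below them. Groups without overlap were found for 54.6% of all genes.

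In the list of receptors for vasoactive amines and peptides, 3 of 23 measured members were higher and 6 lower, beside 16.3% and 16.6% of all genes. Adra2a, an alpha-2 adrenergic receptor, read 0.83, 1.44 and 1.39 without infusion and -3.16, -3.75 and -2.99 with it (change -4.52, SE 0.76, adjusted p = 0.000418), and its relative Adra2c fell by 2.75 (SE 0.62, adjusted p = 0.0032). Avpr1a, the vasopressin receptor of smooth muscle, fell by 2.75 (SE 0.49, adjusted p = 0.00067), and the prostaglandin F receptor Ptgfr by 2.24 (SE 0.35, adjusted p = 0.000253). Edn1, the vasoconstrictor endothelin 1, read 0.35, -0.22 and 0.18 against 1.97, 2.53 and 2.38, higher by 2.19 (SE 0.47, adjusted p = 0.00224).

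The receptors of the infused peptide were read next. Agtr1a, the main angiotensin II receptor, read -2.20, -2.04 and -2.80 without infusion and -2.36, -2.18 and -1.92 with it, overlapping, with a change of 0.19 (SE 0.25, adjusted p = 0.572). Agtr1b rose by 0.76 (SE 0.28, adjusted p = 0.0424), a call lost with the slide block (0.0549) and without uninfused array 2 or 3 or infused array 1 or 3 (0.0584 to 0.192). Agtr2 was well above background on none of the 24 arrays. Rcan1, the calcineurin regulator included among angiotensin II responses, rose by 2.36 (SE 0.42, adjusted p = 0.00067). Of the 17 measured genes of the renin-angiotensin and mineralocorticoid list 2 were higher and 4 lower, beside 16.3% and 16.6% of all genes. Nr3c1, the glucocorticoid receptor, fell by 0.70 (SE 0.15, adjusted p = 0.00212). The mineralocorticoid receptor Nr3c2 fell by 1.55 (SE 0.47, adjusted p = 0.0183), a call lost with the slide block (0.0782) and without uninfused array 1 or 3 or infused array 3 (0.0543 to 0.102). Mme, the endopeptidase neprilysin, fell by 1.26 (adjusted p = 0.0129), a call lost with the slide block (0.0506) and without infused array 3 (0.0563). The list had 2 lower without uninfused array 1 or infused array 3, and 1 higher without any array but uninfused array 1 or infused array 2.

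Genes of salt and water transport were measured under the salt load of both groups. Of 16 measured genes of osmotic response and sodium transport, 3 were higher and 1 lower, beside 16.3% and 16.6% of all genes. Aqp1, a water channel of endothelium and smooth muscle, read 4.95, 4.89 and 4.86 without infusion and 5.86, 5.60 and 6.07 with it, higher by 0.94 (SE 0.18, adjusted p = 0.00102). Scnn1a, a subunit of the epithelial sodium channel, fell by 0.94 (SE 0.18, adjusted p = 0.00126), a call lost after normexp background correction (adjusted p = 0.0701).

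Chaperones of the endoplasmic reticulum were higher. Of 23 measured genes of the unfolded protein response and folding, 16 were higher and 2 lower, with a median of 0.72. Without infused array 3 there were 12 higher. Hspa5, the chaperone BiP, read 5.67, 5.81 and 5.67 without infusion and 6.47, 6.79 and 7.13 with it, higher by 1.08 (SE 0.19, adjusted p = 0.000558), and Sdf2l1 and Manf, also induced by misfolded protein, rose by 1.80 (SE 0.24, adjusted p = 6.81e-05) and 1.43 (SE 0.28, adjusted p = 0.00113). Ddit3, the transcription factor CHOP of the stress-death arm, fell by 0.68 (SE 0.21, adjusted p = 0.0215). None were lower without uninfused array 1 or infused array 3, and 1 was without uninfused array 2, infused array 1 or infused array 2.

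Metabolic lists moved by smaller amounts, and their counts stand beside 16.3% of all genes higher and 16.6% lower. In hypoxia and glycolysis 9 of 26 were higher, among them Pgk1 and Slc16a3, a glycolytic kinase and a lactate exporter, at 1.39 (SE 0.27, adjusted p = 0.00114) and 1.38 (SE 0.18, adjusted p = 6.01e-05). In the same list 5 were lower, 3 without uninfused or infused array 3, and 6 were higher without infused array 3. In oxidative phosphorylation 7 of 36 subunit genes were higher and none lower, with 2 higher with the slide block or without uninfused or infused array 3, 4 without uninfused array 1, 3 without infused array 1 and 14 without infused array 2. In fatty acid oxidation and PPAR targets 10 of 29 were lower and 2 higher, with the slide block 5 and 1, and on the shared slide alone 7 and 0. Leaving out any array but infused array 2 left between 3 and 6 lower. Ppargc1a, a coactivator of mitochondrial genes, read -0.52, -0.60 and -0.48 without infusion and -1.64, -1.97 and -2.40 with it (change -1.47, SE 0.33, adjusted p = 0.00286). Nox4, the NADPH oxidase of smooth muscle, fell by 1.16 (SE 0.28, adjusted p = 0.00473), while Ncf1, a subunit of the phagocyte oxidase, rose by 1.59. The oxidant enzyme list had 4 higher and 2 lower of 20 measured, and 2 higher without uninfused array 1, uninfused array 3 or infused array 3.

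Circadian clock genes moved in both directions. Of 18 measured, 4 were higher (the activators Arntl, Clock and Npas2 and the repressor Nfil3) and 12 lower, among them the Per genes, Cry2, Nr1d1 and Nr1d2 and the output factors Dbp, Tef and Hlf. The arrays of the groups did not overlap for any of the 18, against 54.6% of all genes. Arntl, which encodes the activator BMAL1, read -3.28, -2.76 and -3.52 on the uninfused arrays and -0.87, -1.17 and 1.34 on the infused arrays, higher by 2.95 (SE 0.58, adjusted p = 0.00124). Dbp, an output transcription factor that BMAL1 activates, read 7.26, 7.22 and 7.31 against 5.56, 5.97 and 2.45 (change -2.60, SE 0.74, adjusted p = 0.0127). Nr1d1, the repressor REV-ERB alpha, read 2.59, 3.15 and 2.63 against 1.15, 1.83 and -0.03 (change -1.81, SE 0.39, adjusted p = 0.00226).

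Infused array 3, on the other slide, held the most extreme value for each of these 3 genes. On the shared slide Arntl changed by 2.16 (adjusted p = 0.00729 with the slide block), Nr1d1 by -1.30 (adjusted p = 0.0119) and Dbp by -1.50 (adjusted p = 0.053). With the slide block 3 clock genes were higher and 5 lower, on the shared slide alone 3 and 10, and without infused array 3 there were 2 and 5, with a median of -0.74 in place of -1.02. Ciart, a repressor of the clock, changed by -3.43 (SE 0.94, adjusted p = 0.0104) and by -1.92 on the shared slide (adjusted p = 0.0673 with the slide block). The labels give no time of day at which the aortas were taken, and its part in these changes was not tested.

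**Figure D4:**
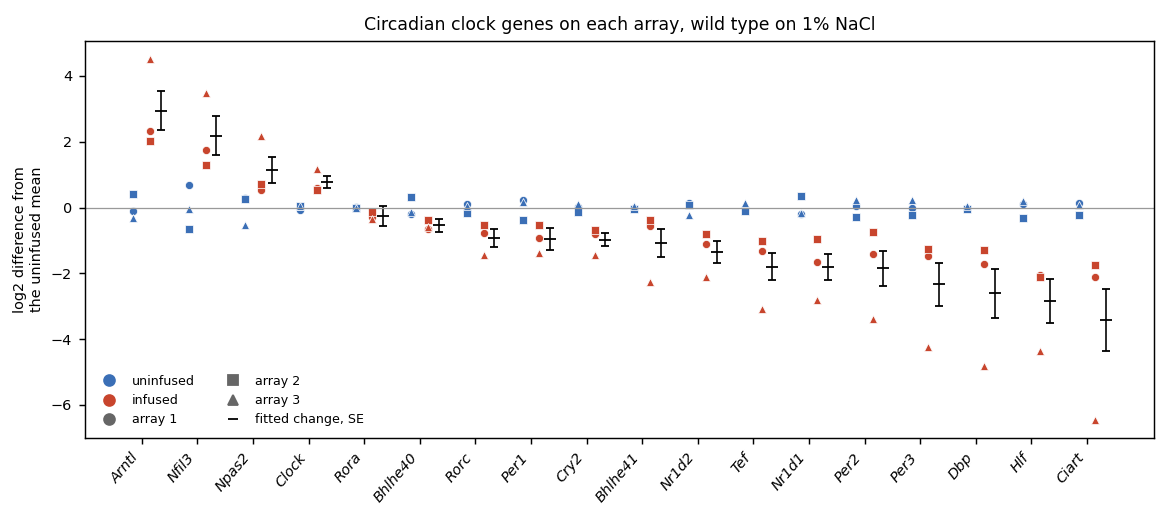
Circadian clock genes on each array as the log2 difference from the uninfused mean (y axis), blue for uninfused and red for infused arrays, with the fitted change and its standard error in black. Infused array 3 (red triangles) lies furthest from 0 for Arntl, Dbp and Ciart, and infused arrays 1 and 2 lie on the same side of 0.

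Markers of fibroblasts were lower in part, and those of fat at not far above the share of all genes. Of 20 measured adventitial fibroblast markers 8 were lower and 2 higher, with 5 lower without infused array 3, and the summed signal fell from between 896 and 981 to between 700 and 783. Scara5, a ferritin receptor of adventitial fibroblasts, read 2.10, 2.16 and 1.94 without infusion and -0.17, 0.21 and -0.95 with it (change -2.37, SE 0.40, adjusted p = 0.000465), and Pdgfra, the growth factor receptor of fibroblasts, fell by 0.88 (SE 0.18, adjusted p = 0.0019). Of 18 measured white adipocyte markers 4 were lower, 2 without infused array 3 and 7 without infused array 2, and the summed signal was 149 to 181 against 63.7 to 131. Of 13 measured brown adipocyte markers 2 were higher and 3 lower. Over all genes 16.3% were higher and 16.6% lower. The part of these cells in the lower proteoglycan and fatty acid genes was not tested.

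Endothelial markers had 5 of 20 measured members higher and none lower, led by Emcn, the sialomucin endomucin, at 1.69 (SE 0.40, adjusted p = 0.0041). There were 3 without uninfused array 1, uninfused array 3 or infused array 3, and 1 was lower without infused array 2. Complement genes split into 7 higher and 6 lower of 19. The counts in this paragraph stand beside 16.3% of all genes higher and 16.6% lower. Cfi, the protease that degrades C3b, rose by 2.38 (SE 0.62, adjusted p = 0.0075), and C7, of the membrane attack complex, read 0.02, -0.15 and 0.16 against -2.66, -1.87 and -2.86 (change -2.47, SE 0.49, adjusted p = 0.00138). Without uninfused array 3, infused array 1 or infused array 3 there were 2 complement genes higher, and 3 without uninfused array 1. In the remaining lists the counts higher and lower were 2 and 0 of 10 platelet markers, 0 and 1 of 7 erythroid, 0 and 1 of 12 mesothelial, 0 and 2 of 15 striated muscle and 1 and 2 of 11 Schwann cell and neuron markers. Leaving out single arrays moved each of these counts by 1 or 2, except that 4 platelet markers were lower without infused array 2.

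Large changes also occurred outside the lists. Inmt, an indolethylamine methyltransferase, had its probe at chr6:55120770-55120829 on mm9 and read 5.57, 5.43 and 5.75 without infusion and -0.19, 0.31 and 0.23 with it (change -5.47, SE 0.56, adjusted p = 1.7e-05). Cyp2b10, a cytochrome P450 induced by xenobiotics, read -0.95, -1.17 and -0.91 against -6.48, -4.12 and -6.44 (change -4.67, SE 0.94, adjusted p = 0.00151). Both genes fell on every infused array, and Inmt stayed detected there while Cyp2b10 was well above background on 1 of the 3. Tcap, the titin cap protein of sarcomeres, read 7.57, 7.85 and 7.78 against 4.66, 5.17 and 1.25 (change -4.04, SE 0.96, adjusted p = 0.00432), with infused array 3 lowest and a shared-slide change of -2.82. Smim6 and Fn3k, a fructosamine kinase, were not well above background on any infused array and were at least 8.03-fold and 6.17-fold lower (adjusted p = 0.000745 and 0.000334). Lsamp and Lgi1, neuronal adhesion and synaptic proteins, were at least 3.59-fold and 2.43-fold lower (adjusted p = 0.000381 and 5.8e-05). The call of Nsg2 (adjusted p = 0.044, and 0.148 with the slide block) was lost without any array but infused array 1 (0.0594 to 0.17). Among genes outside the lists that rose, Pbk, a kinase of mitotic cells, changed by 4.87 (adjusted p = 3.49e-05) and was detected on all 6 arrays. Melk, a kinase of dividing cells, and Pbp2 were not well above background on any uninfused array and were at least 29.0-fold and 10.4-fold higher. Shcbp1 and Sirpb1b changed by 5.18 and 4.96, each with 1 uninfused array near background.

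The same infusion was given to wild type mice on plain water and to IL-17 knockout mice on 1% NaCl, so the effect above can be set beside theirs, with no array shared. In wild type on plain water 2864 genes were higher (12.2%) and 3222 lower (13.7%), 25.9% in all. Of the genes called in each, 4374 were called in the same direction in both, which is 56.5% of those called on salt and 71.9% of those called on plain water, and 2 were called in opposite directions. Ccl2 changed by 4.45 on water and 4.45 on salt, Inmt by -4.39 and -5.47, and Esm1 by 4.88 and 4.82. No difference between the infusion effects on salt and on water passed in limma (0 of 23503 genes, 0%), and 1066 genes had an unadjusted p under 0.05 (4.54%). The test was limited in reach: on simulated data it recovered 32% of differences of 1 log2 unit and 84% of differences of 2. The simulated arrays held independent noise without slide effects or a background floor, so these rates may not hold for the real arrays. With the slide block, where the water effect crosses slides and its slide term rests on infused array 3 against arrays 1 and 2, 4 genes differed upward and 1 downward, among them Arc and Entpd4. Without infused array 3, 1 gene differed upward.

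Several lists had different counts in the 2 effects while no member's difference passed. The clock list had 4 higher and 12 lower on salt and 0 and 2 on plain water, with medians of -1.02 and -0.40. For Arntl the change was 2.95 on salt and 0.06 on water, a difference of 2.89 (SE 0.82, adjusted p = 0.918). The unfolded protein list had 16 higher and 2 lower on salt and 9 and 1 on water, the interferon list 11 and 0 against 3 and 0, and the contractile list 1 and 3 against 0 and 10. Eln rose by 2.20 on salt and 1.22 on water, a difference of 0.98 (SE 0.32, adjusted p = 0.918), and Thbs1 by 4.49 and 3.19, a difference of 1.30 (SE 0.69, adjusted p = 0.918). Mitosis was close in both, with 37 and 35 higher and medians of 3.998 and 3.90.

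**Figure D5:**
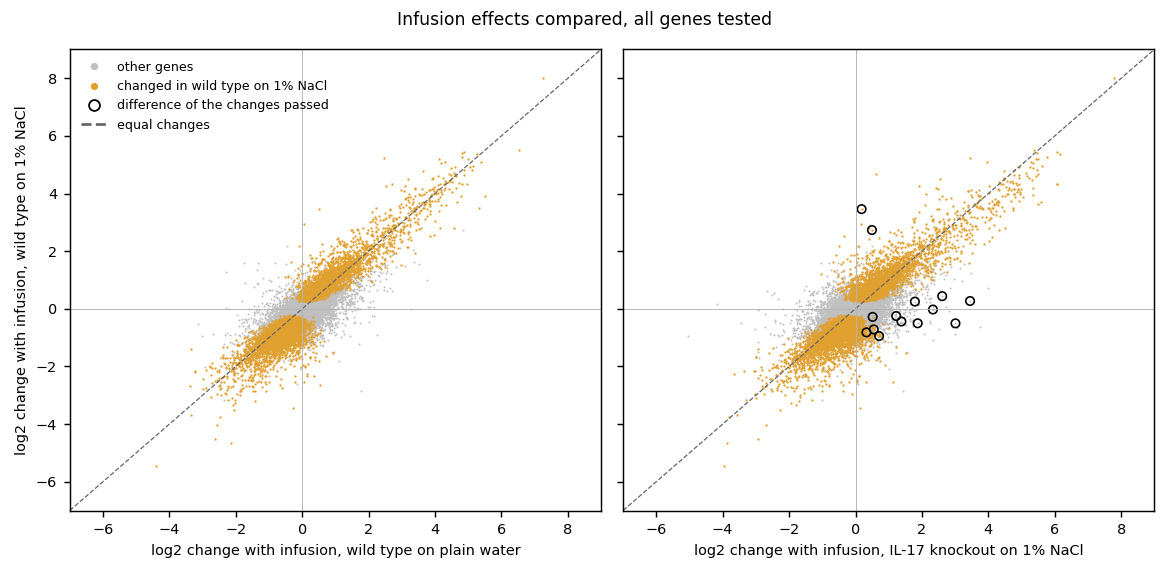
Change with infusion in wild type on 1% NaCl (y axis, log2) against the change in wild type on plain water (left) and in IL-17 knockout on 1% NaCl (right), 1 point per gene, 23503 in each panel. Orange genes changed in wild type on salt, the dashed line marks equal changes and circles mark genes whose difference passed, 0 on the left and 14 on the right.

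In the IL-17 knockout on salt the infusion gave 3117 genes higher (13.3%) and 2818 lower (12%), 25.3% in all. Of these 4030 were called in the same direction in both genotypes, 52.1% of those called in wild type and 67.9% of those called in the knockout, with 14 in opposite directions. Ccl2 changed by 4.57 in the knockout, Esm1 by 4.77 and Inmt by -3.96. The inflammatory list had 14 higher and 0 lower there with a median of 1.83, and the interferon list 20 and 0 with a median of 1.49, against 11 and 0 with 0.62 in wild type. No member of a list differed between the genotypes. For this contrast the same simulation recovered 38% of differences of 1 log2 unit and 64% of differences of 2.

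The difference itself passed for 14 genes (0.0596%), 2 of them more positive in wild type and 12 more negative, and 2118 genes had an unadjusted p under 0.05 (9.01%). Of the 14, 5 carry a RefSeq symbol and 9 only a clone or database name. Stard3, a cholesterol transporter of late endosomes, averaged 2.76 ± 0.04 without and 1.94 ± 0.08 with infusion in wild type, and 1.93 ± 0.01 and 2.26 ± 0.07 in the knockout (SD, n = 3 arrays a group). Its changes of -0.82 and 0.33 differed by -1.15 (SE 0.16, adjusted p = 0.0128). Cdc7, a kinase that fires replication origins, was not well above background on any uninfused wild type array and averaged -3.77 ± 0.21 with infusion (SD, n = 3 arrays), at least 1.80-fold higher. Its fitted difference of 2.24 (SE 0.35, adjusted p = 0.0178) rests on that background value and is not a measured size, and after normexp background correction it was 0.58 (adjusted p = 0.458).

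Mthfd1l, a mitochondrial enzyme of folate metabolism, changed by 0.25 in wild type and 1.79 in the knockout, a difference of -1.54 (SE 0.27, adjusted p = 0.0294). Its uninfused means were 1.07 in wild type and -0.69 in the knockout, so the genotypes stood apart before infusion. Etv5, an ETS transcription factor, differed by -0.80 (SE 0.13, adjusted p = 0.0249), and Rab11fip4, a Rab11 effector of endosomes, by -1.27 (SE 0.22, adjusted p = 0.036). Their uninfused means also stood apart, as did those of Stard3. Etv5 averaged 2.80 in wild type and 2.04 in the knockout without infusion, and 2.52 and 2.56 with it. Rab11fip4 averaged -2.97 and -5.01 without infusion, and -3.68 and -4.45 with it. These calls were narrow. Etv5 missed the threshold without any array of the 4 groups but infused wild type array 3 and infused knockout array 3 (adjusted p 0.0505 to 0.0951), Mthfd1l in 9 of the 12 such fits (0.066 to 0.112) and Rab11fip4 in 9 (0.0687 to 0.127). Cdc7 missed it without uninfused wild type array 2, uninfused knockout array 3, or infused knockout array 1 or 3 (0.0537 to 0.0631), and with the slide as a random block (0.0664). Rab11fip4 was -0.05 after normexp background correction (adjusted p = 0.96), and it missed the threshold after quantile normalisation (0.161), with the authors' values (0.16), with a trended prior (0.163), with the slide as a random block (0.0833) and with only the groups compared (0.06). Mthfd1l missed it after quantile normalisation (0.0523), after normexp (0.0609) and with the authors' values (0.0503). The wild type and knockout arrays lay on different slides, so genotype and slide cannot be told apart in levels, and with the slide block 998 genes differed upward and 970 downward, where the wild type slide term rests on infused array 3 and the knockout effect crosses slides. Leaving out single arrays gave between 0 and 4 genes upward and between 0 and 21 downward. Without uninfused knockout array 3 no difference passed, and Stard3 had an adjusted p of 0.0516. Without infused wild type array 3 there were 21 downward, and without uninfused knockout array 1 there were 2.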

How the data were processed

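Aortic RNA was hybridised to 1-colour Agilent arrays, and the deposited scanner files hold an intensity per spot, made by Feature Extraction 10.7.1.1 per the file headers (9.5.1.1 per the submitters' processing notes). The authors' processed intensity table ranked probes as those files do (lowest rho 0.99996) and served as an alternative. The log2 of the processed signal minus the array's 75th percentile was averaged per probe without outlier spots. Probes had to be well above background on all 3 arrays of a group, and the brightest probe stood for a gene. Symbols came from RefSeq by accession for 27235 of 55681 probes.

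Changes were fitted with limma 3.58.1 (R 4.3.3) over all 24 arrays in 8 groups, called at a Benjamini-Hochberg adjusted p under 0.05. Differences between infusion effects were contrasts of the same fit. The fit was tested on simulated data. Slide, normalisation, background, filter, probe choice, replicate block and single arrays were varied.

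Members and the 39 gene lists were chosen with earlier results of these data known. Named genes were the 15 largest changes each way, list extremes, a set of list members and genes whose difference passed or came nearest (227), and 39 more chosen after their values were seen, while other members are named from their list's calls. Replicate numbers of the uninfused salt group follow the source names, since its titles number them otherwise. Same-numbered arrays of the 2 groups did not deviate together (r -0.12, -0.07 and -0.19), so the numbers were not taken as pairs. The values of some list members are not reported here.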

Additional observations from a re-analysis of the deposited data

Results flagged for a closer look

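The infusion effect in wild type on salt and that in IL-17 knockout on salt differed by the test of the difference for 14 genes, which flagged them. The differences (wild type minus knockout, limma) were -1.15 for Stard3, 2.24 for Cdc7, -0.80 for Etv5, -1.54 for Mthfd1l and -1.27 for Rab11fip4, and the other 9 carry clone or database names. Cdc7 was not well above background on any uninfused wild type array, so its value is a fitted one and not a measured size. All 14 kept their call and direction with the slide as a block. In that fit 998 genes passed upward and 970 downward, so a kept call there says little. With normexp background correction 0 genes passed upward and 5 downward, and without uninfused knockout array 3 none passed.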

How the results depend on the processing

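Of the 7739 genes called, 7669 kept their direction with the mean of a gene's probes, 7732 with normexp, 7737 with the authors' values, and 7738 with quantile normalisation and with no filter on dim probes. All 7739 did with a trended prior, the slide or replicate blocks, only the groups compared, the shared slide and each array left out. These fits use the same values or a part of them, and for 7609 of the genes the groups did not overlap. The kept directions were thus largely fixed in advance. The stricter probe filter tested fewer genes. Leaving out 1 array gave 2142 to 4163 genes higher and 2332 to 4157 lower with infusion, and the replicate block, which the numbers do not justify as a pairing, gave 3634 and 3772. For the difference from plain water, the slide block gave 4 genes upward and 1 downward, and leaving out 1 array gave 0 to 1 upward. For the difference from the knockout, the numbers upward and downward were 0 and 5 with normexp background correction, 998 and 970 with the slide block, and 25 and 55 from only the groups compared. No filter on dim probes gave 10 upward, a trended prior 4 upward, and the slide as a random block 20 downward. Leaving out 1 array gave 0 to 4 upward and 0 to 21 downward. The cause of these shifts was not tested. Of 263 named genes tested, 49 lost their call without infused array 3 and 40 without uninfused array 3. Probes near background on a group's arrays give only bounds.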
